A study of Mus musculus with 4 samples.

Results

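The SLAM family is a small group of immunoglobulin-superfamily receptors of blood cells. The 9 members described here are Slamf1, Slamf6, Slamf7, Slamf8, Slamf9, Cd48, Cd84, Cd244a and Ly9, taken by symbol over the authors' cell type names, and all 9 were present among the 4099 complete gene rows analysed, which cover chromosomes 1 to 4 and part of 5. The table comes from single-cell RNA sequencing of CD45-sorted cells of 4T1 tumours, grown in BALB/c mice from a transplantable mouse mammary carcinoma line. The labels name 2 groups, tumours of Mif-depleted 4T1 cells and tumours of wild-type 4T1 cells, with 2 samples each and 3 pooled tumours in a sample. Mif encodes the cytokine macrophage migration inhibitory factor, and the labels give the depletion as a genotype of the 4T1 tumours, not of the mice. Titles of the Mif-depleted samples carry the prefix sg, which the labels do not explain. Whether the line is a clone is not given.

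No label or header ties a cell barcode suffix to a sample, so no difference between Mif-depleted and wild-type tumours was computed, and what follows compares cell types. Suffix 1 held 13162 cells with counts. Suffix 2 is held in part, with counts for 3221 of its 11961 annotated cells, or 26.9%, and suffixes 3 and 4 had none in the rows analysed. Suffixes 1 and 2, each of unknown group, shared 12 barcode sequences. Levels are unique molecular identifiers (UMIs) per 10000 counted UMIs, summed over the cells of a name, with exact Poisson 95% intervals that cover counting error only. They are not divided by transcript length, so levels are compared between cell types and not between genes. A ratio was called where its exact conditional binomial 95% interval lay wholly beyond a 2-fold difference, and no p-value was computed, because cells of a library are not replicates.

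Cell type names are the authors'. Of the markers listed, the rows analysed held 6 of 9 for T cells, 4 of 7 for B cells and 4 of 7 for macrophages. They held 4 of 5 for osteoclasts, 6 of 6 for neutrophils and 2 of 6, Batf3 and Cd40, for conventional dendritic cells. For monocytes they held 3 of 5, for fibroblasts 3 of 6 and for natural killer cells 1 of 6, Xcl1. With 0 of 6 for epithelial tumour cells and 0 of 5 for plasmacytoid dendritic cells, these names could not be checked by their own markers. In suffix 1 NK_cell had Xcl1 at 86.8 UMIs per 10000 and T cell markers at 39.6, against 23.0 for T cell markers in CD8_Tex. The T cell markers stood at 64.8 to 122 UMIs per 10000 in the 5 CD4 names of suffix 1, and the B cell markers at 37.6 in B_cell. In suffix 2, B_cell had B cell markers at 18.3 and macrophage markers at 34.7, against 14.2 for macrophage markers in suffix 1. The name CD8_Tex went against its label in part, since it carried macrophage markers at 209 UMIs per 10000, against 9.46 to 12.0 in the CD4 names. The name cDC1_Clec9a carried osteoclast markers at 873 UMIs per 10000, and pDC carried them at 220. Batf3 and Cd40 together stood at 1.18 in cDC1_Clec9a, against 19.7 in cDC1_Ccl22, and Clec9a itself was not among the rows analysed. Neutrophil markers were also high outside neutrophils, at 1230 in Macro_Mgl2, where macrophage markers were at 272, at 781 in pDC and at 702 in Macro_Vegfa. The part of these markers in the levels below was not tested. In neutrophils the marker list, which holds S100a8 and S100a9, took 5989 of every 10000 UMIs, so neutrophil levels of other genes are compressed on this scale.

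SLAM receptors sit on leukocytes and most of them bind a copy of themselves on the neighbouring cell. Cd48 differs, being a lipid-anchored ligand for Cd244a and, in mice, for Cd2. The tails of Slamf1, Slamf6, Slamf7, Cd84, Cd244a and Ly9 carry tyrosine switch motifs that recruit the small adaptors SAP and EAT-2, through which the receptors tune T cell help to B cells and the killing activity of natural killer cells, while Slamf8 and Slamf9 have short tails without these motifs. The SLAM locus is also known to differ in haplotype between BALB/c and C57BL/6 mice, and the reference used for names and sequences is C57BL/6.

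Across lineages, 5 of the 9 genes were more abundant in lymphocytes and none was called lower. Lymphocytes were the pooled 3482 cells of 8 names (B, CD4, CD8 and natural killer cells) and myeloid cells the pooled 8872 cells of 12 names (neutrophils, monocytes, macrophages and conventional dendritic cells) of suffix 1. Slamf1 reached 2.05 UMIs per 10000 in lymphocytes and 0.105 in myeloid cells, a log2 ratio of 4.29 (95% interval 4.082 to 4.503). The log2 ratios of Slamf7, Slamf6 and Ly9 were 3.56, 3.49 and 2.59, and that of Cd48 was 1.38. Over all 3296 genes tested, 28.7% were called higher and 4.55% lower, and the median log2 ratio was 0.74.

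With other totals or cells in suffix 1, these 5 stayed called when each cell was thinned to 500 UMIs (30.1% of all genes called higher, 7.96% lower) and in cells of 1000 or more UMIs (24.1% and 2.86%). They also stayed called without cells of mixed lineage (36.8% and 10.3%), which are lymphocytes with 5 or more C1q UMIs and myeloid cells with a UMI of a T or B cell gene. That filter picks cells by macrophage and lymphocyte genes, so its calls are not independent of it. Cd48 was not called without S100a8 and S100a9 in the totals (12.5% and 8.62%) or in UMIs per cell (7.49% and 15%).

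The other 4 members were not called. Slamf8 had 0.666 UMIs per 10000 in lymphocytes and 0.843 in myeloid cells, Slamf9 had 1.47 and 1.65, Cd84 had 3.46 and 4.63, and Cd244a had 0.335 and 0.705 in the same order of lineages. Their log2 ratios were -0.34, -0.17, -0.42 and -1.07. Much of the lymphocyte side came from CD8_Tex, the name with macrophage markers, which held 2163060 of the 4687063 counted lymphocyte UMIs. It supplied 297 of the 312 lymphocyte UMIs of Slamf8, 626 of 690 of Slamf9, 849 of 1624 of Cd84 and 114 of 157 of Cd244a. In suffix 2, where 15.1% of 2919 tested genes were called higher and 8.5% lower, the same 5 members were called higher and Slamf9 was called lower, at -1.88 on the log2 scale. Cd244a changed sign there, to 0.35 (0.03 to 0.67).

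Cd48 was also not called once neutrophils were left out. They held 187 of the 3310 myeloid Cd48 UMIs but 10797510 of the 22207349 counted myeloid UMIs. Why neutrophils held so few Cd48 UMIs was not tested. Without them, the log2 ratio of Cd48 in suffix 1 was 0.50, with 3.87 UMIs per 10000 in lymphocytes and 2.74 in the remaining myeloid cells, while those of Slamf1, Slamf6, Slamf7 and Ly9, against backgrounds of 10.6% higher and 7.94% lower, were 3.56, 2.62, 2.64 and 1.71 and still called, and Slamf8, at -1.27, was called lower. Leaving out CD8_Tex moved Slamf8, Slamf9 and Cd244a past the fold. Without that name their log2 ratios were -3.83, -2.70 and -2.05, each called lower, where 11.1% of genes were called lower and 29.3% higher. In suffix 2 without neutrophils, where 10.1% were called higher and 10.4% lower, Cd48 was at 1.10 and not called. Without neutrophils and cells of mixed lineage together, Cd48 was at 0.67 in suffix 1, with 15.5% called higher and 14.7% lower.

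**Figure D1:**
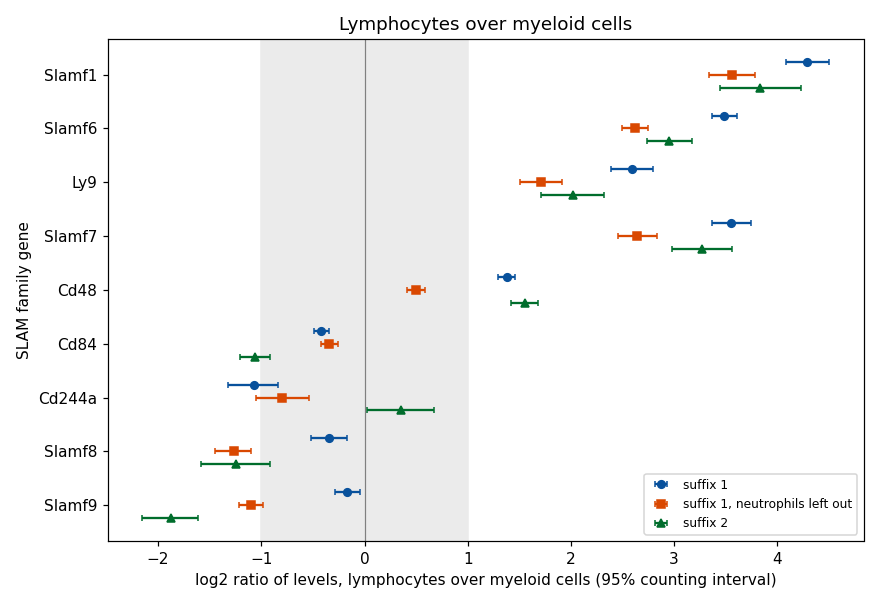
Log2 ratio of summed levels, lymphocytes over myeloid cells, for each SLAM gene (rows), with 95% counting intervals; circles are suffix 1, squares suffix 1 with neutrophils left out, triangles suffix 2, and the grey band marks less than a 2-fold difference. Slamf1, Slamf6, Ly9 and Slamf7 lie right of the band in all 3 settings, and Cd48 falls inside it at 0.50 without neutrophils.

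**Figure D2:**
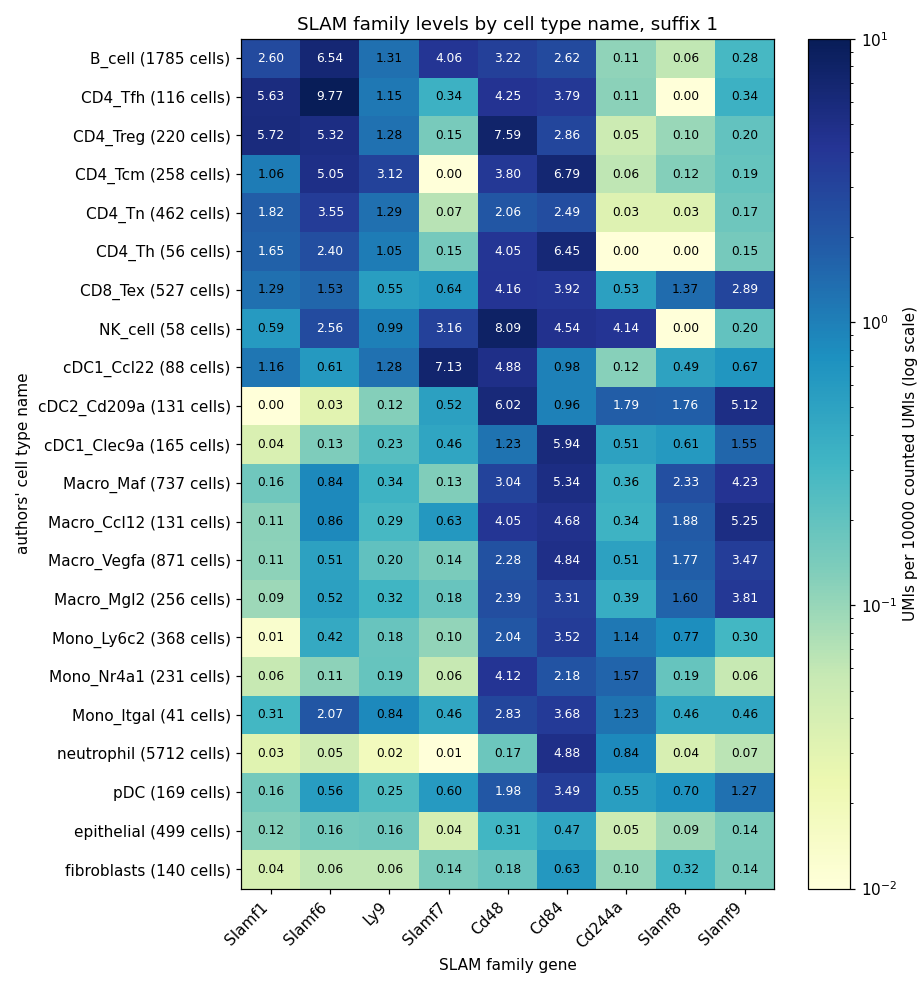
Level of each SLAM gene (columns) in 22 of the authors' cell type names (rows, with cell numbers) in suffix 1; numbers are UMIs per 10000 counted UMIs and the colour is on a log scale. Slamf1, Slamf6 and Ly9 are darkest in lymphocyte rows, Slamf8 and Slamf9 in macrophage and cDC2_Cd209a rows, and neutrophils show Cd84 at 4.88 and Cd244a at 0.84 with every other member at 0.173 or less.

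Slamf1, a self-binding co-receptor of T and B cells, was highest in CD4_Treg and CD4_Tfh. In suffix 1 it stood at 5.72 UMIs per 10000 in CD4_Treg (4.72 to 6.86) and 5.63 in CD4_Tfh (4.17 to 7.45), which did not differ beyond counting error (log2 ratio 0.02, -0.47 to 0.53). B_cell followed at 2.60 and CD4_Tn at 1.82, then CD4_Th, CD8_Tex, cDC1_Ccl22, CD4_Tcm and NK_cell between 1.65 and 0.592. Every other name reported here with 50 or more cells was at 0.163 or less, and cDC2_Cd209a had 0 UMIs, where 3 counts would give 0.0926. CD4_Treg exceeded CD4_Tn by 1.65 on the log2 scale in suffix 1 (1.17 to 2.14) and by 1.68 in suffix 2 (0.61 to 2.95). In suffix 2 CD4_Treg was again highest, at 7.24, and CD4_Tfh, with 42 cells, stood at 3.46.

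Slamf6, the receptor also called Ly108 that supports contacts of helper T cells with B cells, was highest in CD4_Tfh. Its levels in suffix 1 were 9.77 UMIs per 10000 in CD4_Tfh (7.81 to 12.1), 6.54 in B_cell, 5.32 in CD4_Treg, 5.05 in CD4_Tcm and 3.55 in CD4_Tn. CD4_Tfh lay above B_cell, its neighbour in this order, beyond counting error, and above CD4_Treg by 0.88 on the log2 scale (0.45 to 1.30), whereas CD4_Treg and CD4_Tcm did not differ beyond counting error. Macro_Ccl12, Macro_Maf, Macro_Mgl2 and Macro_Vegfa lay between 0.511 and 0.855, above cDC2_Cd209a with 1 UMI (0.0309) and neutrophils at 0.0463. In suffix 2 B_cell, at 3.69, stood below CD4_Tcm at 7.32 and CD4_Treg at 4.95, and CD4_Treg and B_cell did not differ beyond counting error. The level in CD4_Tfh was 14.3 there, yet 3 of its 42 cells held 50% or more of the 66 UMIs, and 1 cell alone held 20.

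Ly9, another self-binding member, was highest in CD4_Tcm in suffix 1, at 3.12 UMIs per 10000 (2.31 to 4.11). B_cell, CD4_Tn, CD4_Treg, cDC1_Ccl22, CD4_Tfh and CD4_Th followed within counting error of their neighbours, between 1.31 and 1.05. The log2 ratio of CD4_Tcm over CD4_Tn was 1.27 in suffix 1 (0.64 to 1.91), and in suffix 2, where CD4_Tcm had 7 UMIs, it was 0.33 with an interval that includes 0 (-1.65 to 2.55). The highest Ly9 levels of suffix 2 were 3.03 in CD4_Tfh, from 14 UMIs, and 2.65 in NK_cell, from 11, with CD4_Tcm at 1.42. Ly9 lies on the opposite strand within the span of Cd244a, and whether counting used strand is not given in the sources used here, so reads of the pair could have been confused, which was not tested. Neutrophils had 902 Cd244a and 20 Ly9 UMIs, and B_cell had 18 Cd244a and 216 Ly9 UMIs.

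Slamf7, a receptor of natural killer cells, plasma cells and activated B cells, was concentrated in 3 names. It stood at 7.13 UMIs per 10000 in cDC1_Ccl22 (5.90 to 8.55), 4.06 in B_cell (3.76 to 4.38) and 3.16 in NK_cell (1.80 to 5.12) of suffix 1. The next name, CD8_Tex, was at 0.643, and CD4_Tcm had 0 UMIs, where 3 counts would give 0.187. cDC1_Ccl22 exceeded cDC2_Cd209a by 3.76 on the log2 scale (3.02 to 4.59), and B_cell and NK_cell did not differ beyond counting error (0.36, -0.35 to 1.18). In suffix 2 the levels were 3.14 in cDC1_Ccl22 with 39 cells, 4.15 in B_cell and 4.58 in NK_cell, and CD4_Tfh, at 0.345 in suffix 1, stood at 1.95. When every cell was thinned to 500 UMIs, 33.8% of cDC1_Ccl22 and 15.8% of B_cell cells kept a Slamf7 UMI, against 0.0780% of neutrophils and 0 of 343 epithelial cells. Thinning left out 8 cDC1_Ccl22, 673 B_cell, 586 neutrophil and 156 epithelial cells below that depth, and unthinned shares were 50%, 21.1%, 0.175% and 1.00% in the same names, at median depths of 1692, 558, 1120 and 826 UMIs.

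Within B_cell, Slamf7 was uneven, and 94 of 1785 cells held 50% or more of its 672 UMIs. Cells with 0, 1 to 2 and 3 or more Slamf7 UMIs numbered 1409, 304 and 72, with median totals of 527, 745.5 and 2917 UMIs, so this grouping also follows depth, and the genes below were chosen after their values were seen and carry no test. Over these 3 groups the level of Slpi, a secreted protease inhibitor, was 25.2, 168 and 301 UMIs per 10000. Ube2c and Cenpf, genes of dividing cells, were at 1.17, 5.41 and 9.16 and at 0.702, 3.27 and 6.32. The B cell genes Fcmr and Bank1 stood at 14.2, 8.57 and 3.39 and at 14.2, 6.65 and 2.89. Among the other members, Cd84 was at 3.28, 2.11 and 1.13, Slamf6 at 7.63, 5.19 and 4.95, and Cd48 at 2.92, 3.25 and 4.29. In suffix 2 Slpi was at 119, 455 and 765 and Cd84 at 1.93, 1.70 and 0.756, whereas Ube2c, at 4.21, 6.19 and 4.70, did not keep the order. The macrophage markers of suffix 2 B_cell, given above, were not followed over these groups.

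Cd48, the lipid-anchored ligand, had UMIs in every name. NK_cell had 8.09 UMIs per 10000 (5.80 to 10.97) and CD4_Treg 7.59 (6.44 to 8.89) in suffix 1, and these names had 7.47 and 8.45 in suffix 2. The log2 ratio of CD4_Treg over CD4_Tn was 1.88 in suffix 1 (1.45 to 2.33) and 2.09 in suffix 2 (0.97 to 3.46). Of the names with a cDC prefix, cDC2_Cd209a stood at 6.02 and cDC1_Clec9a at 1.23, a log2 ratio of 2.29 (1.93 to 2.65) that was 2.95 in suffix 2. Mono_Nr4a1 was above Mono_Ly6c2, at 4.12 against 2.04.

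Neutrophils had a Cd48 level of 0.173 UMIs per 10000 (0.149 to 0.200), within counting error of fibroblasts at 0.182, and epithelial cells stood at 0.312. Leaving S100a8 and S100a9 out of the totals put neutrophils at 0.417 and epithelial cells at 0.319. The log2 ratio of neutrophils over Mono_Ly6c2 was -2.36 that way and -3.56 with these genes counted.

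Cd244a, the natural killer cell receptor that binds Cd48, was highest in NK_cell at 4.14 UMIs per 10000 (2.56 to 6.33) in suffix 1, from 21 UMIs. In suffix 2 NK_cell had 1.45 from 6 UMIs, within counting error of CD8_Tex at 1.20, and cDC2_Cd209a, with 34 cells, was at 1.70. Next in suffix 1, among names of 50 or more cells, came cDC2_Cd209a at 1.79, Mono_Nr4a1 at 1.57, Mono_Ly6c2 at 1.14 and neutrophils at 0.835, and Mono_Itgal, with 41 cells, had 1.23. This order turned with the denominator. Without S100a8 and S100a9 in the totals, neutrophils stood at 2.01 in suffix 1, above cDC2_Cd209a at 1.80 and Mono_Nr4a1 at 1.64, and below NK_cell at 4.17. In suffix 2 neutrophils were at 1.52 that way, beside NK_cell at 1.45 and cDC2_Cd209a at 1.70. The CD4 names had 0 or 1 UMI each. Neutrophils exceeded Macro_Maf by 1.22 on the log2 scale in suffix 1 (0.93 to 1.52) and by 1.82 in suffix 2 (1.03 to 2.71). Thinned to 500 UMIs, 6.01% of neutrophils kept a Cd244a UMI, against 0 of 343 epithelial cells, where unthinned shares were 13.2% and 1.00%.

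Cd2, the other mouse partner of Cd48 and an adhesion receptor of T cells, had its highest levels in CD4_Treg (36.7 UMIs per 10000), CD4_Tfh (28.5) and CD4_Tn (18.7), with 4.87 in B_cell and 0.145 in neutrophils. Pooled, it stood at 8.17 in lymphocytes and 0.435 in myeloid cells.

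Cd84, a self-binding receptor of platelets, lymphocytes and phagocytes, was the member with the most UMIs, 12325 of suffix 1. Levels were 6.79 UMIs per 10000 in CD4_Tcm, 6.45 in CD4_Th and 5.94 in cDC1_Clec9a, neighbours in the order that did not differ beyond counting error, then 5.34 in Macro_Maf and 4.88 in neutrophils. In suffix 2 cDC1_Clec9a led at 7.005, with CD4_Tfh at 5.20, CD4_Tcm at 4.27 and CD4_Th at 2.35. Without S100a8 and S100a9 in the totals, neutrophils stood at 11.8 and Macro_Maf at 5.44, so the order of these names turned with the denominator (log2 ratio of neutrophils over Macro_Maf -0.13 with these genes counted and 1.11 without). In suffix 2 the same ratios were 0.02 and 1.26. After thinning to 500 UMIs, 25.7% of neutrophils and 25.1% of Macro_Maf cells kept a Cd84 UMI, against 2.33% of epithelial cells, where unthinned shares were 50.7%, 76.7% and 5.81%.

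For Cd84, cDC1_Clec9a, which carried osteoclast markers, exceeded cDC2_Cd209a by 2.63 on the log2 scale in suffix 1 (2.11 to 3.21) and by 4.95 in suffix 2 (3.092 to 7.999). The name cDC1_Ccl22, at 0.975, was within counting error of cDC2_Cd209a, at 0.957. CD4_Tcm exceeded CD4_Tn by 1.45 on the log2 scale in suffix 1 (1.01 to 1.89) and by 1.59 in suffix 2 (0.15 to 3.36).

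Slamf8 and Slamf9, the members with short tails, followed the macrophage and cDC2_Cd209a names. Slamf8, which in mice restrains the oxidase of macrophages, stood at 2.33 UMIs per 10000 in Macro_Maf (2.16 to 2.52), 1.88 in Macro_Ccl12, 1.77 in Macro_Vegfa, 1.76 in cDC2_Cd209a and 1.596 in Macro_Mgl2. Monocytes were lower, with 0.772 in Mono_Ly6c2 and 0.186 in Mono_Nr4a1, and neutrophils had 0.0389. Macro_Maf exceeded Mono_Ly6c2 by 1.597 on the log2 scale in suffix 1 (1.21 to 2.01) and by 1.27 in suffix 2 (0.71 to 1.89). CD4_Tfh, CD4_Th and NK_cell had 0 Slamf8 UMIs, where 3 counts would give 0.3449, 0.4501 and 0.5916.

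Slamf9 was at 5.25 UMIs per 10000 in Macro_Ccl12 (4.23 to 6.43), 5.12 in cDC2_Cd209a (4.37 to 5.97), 4.23 in Macro_Maf, 3.81 in Macro_Mgl2 and 3.47 in Macro_Vegfa. In suffix 2 the same names stood at 9.53, with 26 cells, and at 4.19, with 34 cells, 4.96, 4.27 and 3.43. The step between macrophages and monocytes was larger than for Slamf8, since Mono_Ly6c2 had 0.301 and the log2 ratio of Macro_Maf over Mono_Ly6c2 was 3.81 (3.22 to 4.48), or 2.82 in suffix 2 (2.16 to 3.57). Over neutrophils, at 0.0658, Macro_Maf was higher by 6.01 on the log2 scale (5.66 to 6.37). Slamf8 and Slamf9 had a Pearson correlation of log2(level + 1) of 0.95 over 22 names in suffix 1, the highest of the 36 pairs of members there, and of 0.83 over 15 names in suffix 2, a description over names that share libraries.

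Promoter sequences are shown for Slamf9 and Slamf8, whose levels moved together, for Cd84, which neutrophils and macrophages shared, and for the lymphocyte gene Slamf6. They are RefSeq sequences of GRCm38.p6, 250 bases before to 50 bases after the gene start, 5′ to 3′ on the gene's strand, at chr1:172475110-172475409 (+), chr1:172590519-172590818 (-), chr1:171839447-171839746 (+) and chr1:171917212-171917511 (+) in the order listed. RefSeq and GENCODE starts can differ, and the Slamf6 window ends before the GENCODE start given further on. Capitals mark a match on either strand to the letters GAGGAA (the PU.1 core), TGTGGT (RUNX), GAAA followed after any 2 bases by GAAA (IRF) or TTNNGNAA (C/EBP).
Slamf9: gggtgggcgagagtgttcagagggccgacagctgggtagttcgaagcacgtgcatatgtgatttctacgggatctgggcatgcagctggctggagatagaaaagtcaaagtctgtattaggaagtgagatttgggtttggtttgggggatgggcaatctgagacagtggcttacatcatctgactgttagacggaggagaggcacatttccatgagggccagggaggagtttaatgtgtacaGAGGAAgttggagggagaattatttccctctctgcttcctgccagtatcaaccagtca
Slamf8: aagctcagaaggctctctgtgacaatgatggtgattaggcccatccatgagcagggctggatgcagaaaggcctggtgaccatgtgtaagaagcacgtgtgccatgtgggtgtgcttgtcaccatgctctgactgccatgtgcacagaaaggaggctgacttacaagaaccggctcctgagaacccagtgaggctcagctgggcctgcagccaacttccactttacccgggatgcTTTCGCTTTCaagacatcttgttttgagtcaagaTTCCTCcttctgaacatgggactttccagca
Cd84: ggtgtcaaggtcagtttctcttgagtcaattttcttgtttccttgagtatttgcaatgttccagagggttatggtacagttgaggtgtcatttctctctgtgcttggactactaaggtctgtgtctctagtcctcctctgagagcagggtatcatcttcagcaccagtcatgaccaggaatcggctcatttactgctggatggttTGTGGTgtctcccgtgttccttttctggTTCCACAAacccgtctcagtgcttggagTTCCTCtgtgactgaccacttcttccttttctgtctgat
Slamf6: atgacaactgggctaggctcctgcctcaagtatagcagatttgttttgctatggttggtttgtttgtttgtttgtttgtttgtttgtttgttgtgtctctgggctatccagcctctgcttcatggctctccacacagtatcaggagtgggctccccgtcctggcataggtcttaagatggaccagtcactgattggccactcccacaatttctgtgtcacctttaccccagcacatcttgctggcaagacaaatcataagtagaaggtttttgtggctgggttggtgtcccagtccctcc

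GAGGAA occurred at base 243 of the Slamf9 sequence and, on the opposite strand, at bases 270 of Slamf8 and 262 of Cd84, counted from 1 at the 5′ end, and these letters occurred in 28.3% of 32851 mouse promoters of this length. Slamf8 also held the IRF letters at base 236 on the opposite strand, found in 3.44% of promoters. Cd84 held TGTGGT at base 206, found in 16.8%, and TTNNGNAA at base 234 on the opposite strand, found in 40.7%. No marked matches overlapped in these 4 sequences, and Slamf6 held none of the 4 letter strings. Of the 9 members, 8 had an entry, and Ly9 had none. In the promoters not printed, GAGGAA occurred in Cd244a, TGTGGT in Cd48, and TTNNGNAA in Slamf1, Slamf7 and Cd244a. A match of letters says nothing of a bound factor.

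In CD8_Tex, SLAM levels moved with the C1q complement genes, which macrophages make. Of its 527 cells in suffix 1, 106 had 0 UMIs of C1qa, C1qb and C1qc together, 168 had 1 to 4 and 253 had 5 or more, and the median totals were 1169.5, 1616.5 and 5447 UMIs. Slamf9 was at 0.265, 0.546 and 3.78 UMIs per 10000 in these 3 groups, Slamf8 at 0.0529, 0.234 and 1.81, and Cd84 at 1.80, 2.21 and 4.59. The Macro_Maf cells that had as many C1q UMIs held Slamf9 at 4.30, Slamf8 at 2.36 and Cd84 at 5.41. Slamf1 and Cd48 ran the other way, at 2.49, 2.29 and 0.91 and at 7.88, 7.02 and 3.03.

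The log2 ratio of levels in CD8_Tex cells with 5 or more over those with 0 C1q UMIs was 3.84 for Slamf9 (2.60 to 5.46), 1.35 for Cd84 (0.86 to 1.89), -1.45 for Slamf1 (-1.93 to -0.94) and -1.38 for Cd48 (-1.65 to -1.11). In suffix 2 it was 5.46 for Slamf9, from 90 UMIs against 1, 0.79 for Cd84, -0.74 for Slamf1 with an interval that includes 0 (-1.59 to 0.12), and -0.83 for Cd48. Slamf7 was at -1.30 in suffix 1 and -0.11 in suffix 2, where its interval includes 0. Slamf6, Ly9 and Cd244a did not differ beyond counting error in suffix 1, and Cd244a was lower in suffix 2, at -1.17 (-1.96 to -0.39). No doublet caller was run, and whether these droplets held more than 1 cell was not tested. CD8_Tex cells with 0 C1q UMIs had Cd48 at 7.88, beside 7.59 in CD4_Treg, and Cd244a at 0.529 in suffix 1 and 1.78 in suffix 2.

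**Figure D3:**
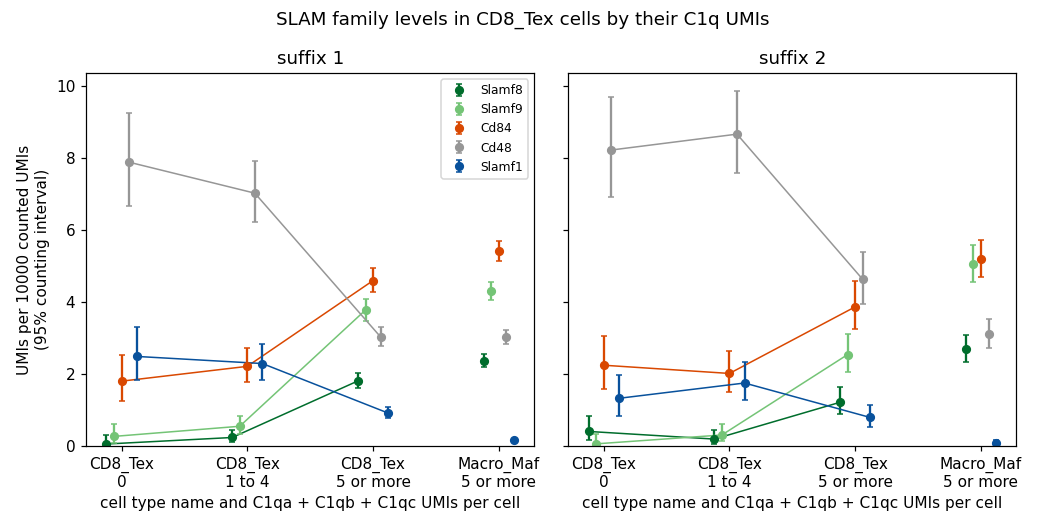
Levels of 5 SLAM genes in CD8_Tex cells by their summed C1qa, C1qb and C1qc UMIs (0, 1 to 4, 5 or more) and in Macro_Maf cells with 5 or more, as UMIs per 10000 counted UMIs with 95% Poisson intervals; suffix 1 is left and suffix 2 right. Among the 3 groups of CD8_Tex cells, those with 5 or more C1q UMIs have the highest Slamf8, Slamf9 and Cd84 and the lowest Cd48 in both suffixes.

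Single names were also set against all other cells of suffix 1, from the same UMIs as the levels above and so not independent of them. Calls are read beside the share of 3514 tested genes called in that comparison. B_cell had 4 members called higher (Slamf1, Slamf6, Slamf7 and Ly9) against a background of 16.1%, and CD4_Treg had 4 (Slamf1, Slamf6, Cd48 and Ly9) against 9.48%. NK_cell had Slamf7, Cd48 and Cd244a against 4.95%, cDC1_Ccl22 had Slamf7, Cd48 and Ly9 against 7.83%, and cDC2_Cd209a had Slamf9, Cd48 and Cd244a against 4.07%. CD4_Tn had Slamf1, Slamf6 and Ly9 against 10%, CD4_Tcm had Slamf6 and Ly9 against 10.8%, and CD4_Tfh had Slamf1 and Slamf6 against 7.46%. CD8_Tex had Slamf1 and Cd48 against 6.97%, and Mono_Nr4a1 had Cd48 and Cd244a against 3.67%. Macro_Maf and Macro_Vegfa each had Slamf8 and Slamf9, against 5.55% and 2.87%, and Macro_Ccl12 and Macro_Mgl2 had Slamf9 alone, against 2.9% and 3.9%. Lower calls fell in many names. Mono_Nr4a1 had Slamf1, Slamf6, Slamf7, Slamf8 and Slamf9 lower against 7%, and Mono_Ly6c2 had Slamf1, Slamf7 and Slamf9 against 6.15%. B_cell, CD4_Tn and CD4_Treg each had Slamf8, Slamf9 and Cd244a lower, against 14.7%, 9.68% and 5.86%. In CD4_Tcm Slamf9 was lower against 6.69%. Neutrophils had 7 of 9 called lower, all but Cd84 and Cd244a, in a comparison in which 73.5% of all genes were called lower. Macro_Maf and Macro_Vegfa each had Slamf1 and Slamf7 lower, against 9.59% and 8.39%, and Macro_Mgl2 had Slamf1 against 5.83%. In cDC2_Cd209a Slamf1, Slamf6 and Cd84 were lower against 3.98%, in cDC1_Clec9a Slamf1 and Slamf6 against 10.7%, and in cDC1_Ccl22 Cd84 against 2.9%. Epithelial cells had 8 called lower against 12.1%, and fibroblasts had Slamf1, Slamf6, Slamf9, Cd48, Cd84 and Cd244a against 5.92%. The names pDC and CD4_Th had no member called in either direction, at backgrounds of 5.98% and 5.72% higher and 2.99% and 2.87% lower.

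Summed over the 9 genes, family levels were 25.4 UMIs per 10000 in CD4_Tfh (22.2 to 29.0), 24.3 in NK_cell, 23.3 in CD4_Treg and 20.8 in B_cell, against 6.1 in neutrophils, 1.7 in fibroblasts and 1.5 in epithelial cells. The totals did not split lymphocytes from myeloid cells, since Macro_Ccl12, Macro_Maf and cDC2_Cd209a stood below B_cell but above CD4_Tn. The neutrophil total is compressed by S100a8 and S100a9. The make-up, as shares of UMIs counted and not divided by length, differed between names. Slamf6 and Slamf1 supplied 60.6% of the family UMIs of CD4_Tfh, Cd48 and Slamf1 57.2% of those of CD4_Treg, Slamf6 and Slamf7 50.9% of those of B_cell, and Slamf7 and Cd48 69.4% of those of cDC1_Ccl22. Cd84 and Slamf9 supplied 57.1% in Macro_Maf and 60.1% in Macro_Vegfa, and Cd84 and Cd244a 93.7% in neutrophils. The leading pair was the same in suffix 2 for CD4_Treg, Macro_Maf, Macro_Vegfa, cDC1_Ccl22 and neutrophils, where that share was 92.7%, in B_cell its members changed places, and in CD4_Tfh Cd84 and in NK_cell Slamf7 took the second place. With every cell thinned to 500 UMIs, 76.2% of NK_cell, 69.8% of CD4_Tfh and 31.0% of neutrophil cells kept a UMI of any member, against 7.87% of epithelial cells.

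**Figure D4:**
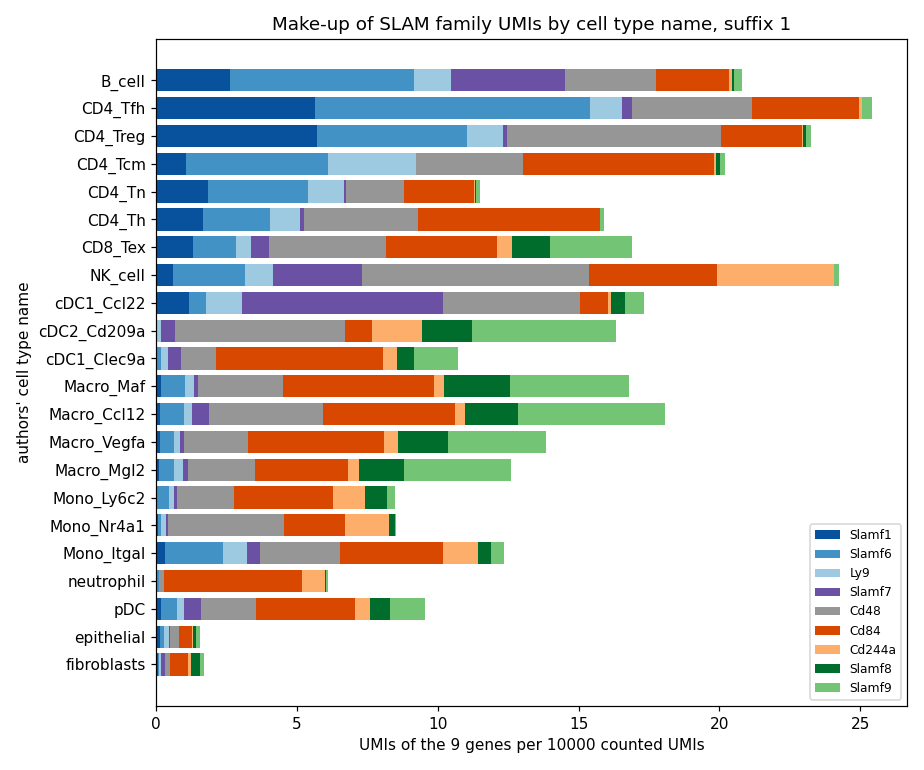
Stacked levels of the 9 SLAM genes in the authors' cell type names in suffix 1, in UMIs per 10000 counted UMIs; each colour is a gene and the bar's length is the family's summed level. CD4_Tfh has the longest bar at 25.4, the neutrophil bar of 6.1 is almost wholly Cd84 and Cd244a, and epithelial cells and fibroblasts have the shortest at 1.5 and 1.7.

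All 9 genes lie on chromosome 1, in 2 groups, by GENCODE M21 on GRCm38. In the proximal group of 7, spanning 393.98 kb, Cd244a is at chr1:171559193-171609746 (+), Ly9 at chr1:171588624-171607410 (-), Slamf7 at chr1:171632403-171653035 (-), Cd48 at chr1:171682009-171705258 (+), Slamf1 at chr1:171767127-171801184 (+), Cd84 at chr1:171839697-171890718 (+) and Slamf6 at chr1:171917515-171953170 (+). Slamf9, at chr1:172475358-172478575 (+), and Slamf8, at chr1:172581758-172590568 (-), follow after a gap of 522.19 kb. The stretch from the Slamf9 start to the Slamf8 end, both genes included, is 115.21 kb. Order on the chromosome did not sort the genes by lineage, since Cd84, with a log2 ratio of lymphocytes over myeloid cells of -0.42, lies between Slamf1 at 4.29 and Slamf6 at 3.49.

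Neighbours were counted in the same way. Gm37065, annotated as antisense across the Slamf6 start, was called higher in lymphocytes, at 2.42 from 51 UMIs in lymphocytes and 45 in myeloid cells. If counting did not use strand, reads in the stretch where the 2 genes overlap could have been confused, which was not tested. A630035G10Rik, which ends next to the Cd48 start, had 28 UMIs in lymphocytes and 12 in myeloid cells. Fcrl6, an Fc receptor-like gene beside Slamf8, had 32 UMIs in lymphocytes and 7 in myeloid cells. The flanking genes Itln1 and Vangl2 were not called, at -0.92 and 0.60.

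**Figure D5:**
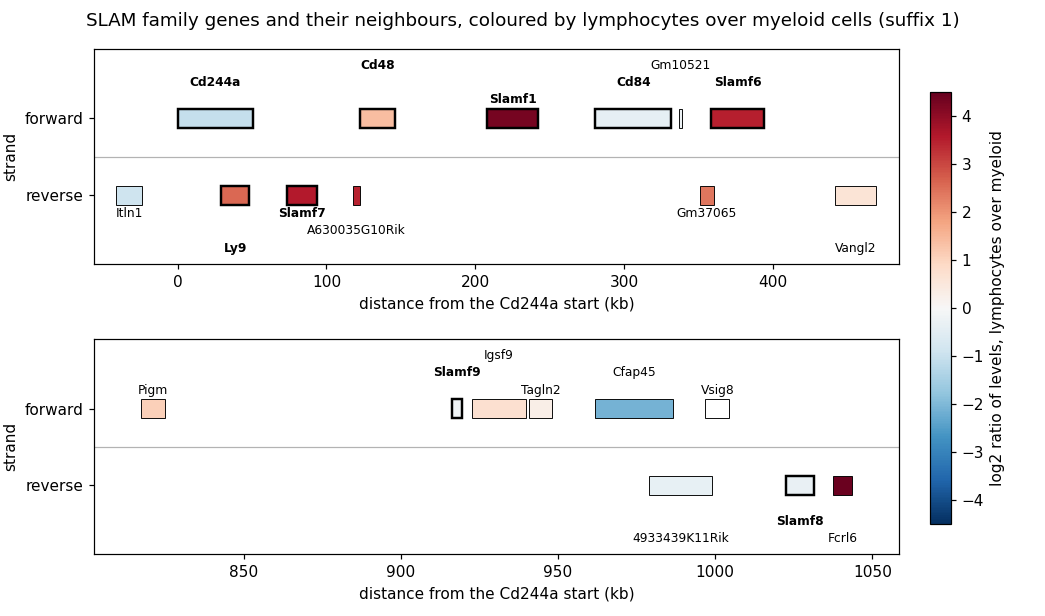
Both groups of SLAM genes (bold, thick outlines) and their neighbours by distance from the Cd244a start in kb, with the strand on the y axis and box width to scale; colour is the log2 ratio of levels, lymphocytes over myeloid cells, in suffix 1. Red members (Slamf1 at 4.29, Slamf7 at 3.56, Slamf6 at 3.49) and pale ones (Cd84 at -0.42) are interleaved. Slamf9 and Slamf8 are pale at -0.17 and -0.34, with CD8_Tex counted among the lymphocytes.

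Of 28 genes listed for the SLAM pathway, 16 were among the rows analysed and 15 were tested between lineages in suffix 1. Of these, 5 were called higher in lymphocytes, 2 lower and 8 neither, with a median log2 ratio of 0.67 beside 0.74 over all genes tested, of which 28.7% were called higher and 4.55% lower. Lck and Prkcq, kinases of T cell receptor signalling, were at 4.32 and 4.36, Cd160, a receptor of killer lymphocytes, at 4.88, Cd2 at 4.23 and the exchange factor Vav2 at 1.52. Fgr, a Src-family kinase of myeloid cells, was called lower, at -1.84. In suffix 2, 6 of 16 were called higher and 2 lower, beside 15.1% and 8.5% of all genes, and in suffix 1 without neutrophils 4 of 15 were called higher and 3 lower, beside 10.6% and 7.94%.

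Sh2d1b1 encodes EAT-2, an adaptor of SLAM receptors known from natural killer cells. Its level was 2.37 UMIs per 10000 in NK_cell, 1.85 in cDC2_Cd209a, 1.77 in Macro_Ccl12 and 1.70 in Macro_Maf, against 0.0287 in neutrophils. Over lineages its log2 ratio was -0.32 in suffix 1, -0.75 in suffix 2 and, called lower, -1.25 in suffix 1 without neutrophils. In Macro_Ccl12, Macro_Maf, Macro_Mgl2 and Macro_Vegfa, Cd244a stood at 0.342 to 0.511 and Slamf7 at 0.132 to 0.627, against 4.14 and 3.16 in NK_cell.

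The genes most like each member over 22 names, by Pearson correlation of log2(level + 1) among 3514 genes, included other members. Slamf8 was closest to Slamf9 (0.95), Ppfia4 (0.94) and the macrophage mannose receptor gene Mrc1 (0.93). Slamf6 was closest to Trp53inp1, Traf3ip3 and Cd2, all at 0.91, and Slamf1 to Trp53inp1 (0.93), Phc3 (0.90) and Slamf6 (0.90). Cd48 was closest to the DNA sensor gene Aim2 (0.90), whereas Cd84 had no partner above 0.69 (Dgkz). With 0.1 in place of 1 added to each level, 11 of the 27 such genes were kept, and the 3 closest no longer held Slamf9 or Mrc1 for Slamf8, Phc3 or Slamf6 for Slamf1, or Trp53inp1 or Traf3ip3 for Slamf6. Among members, Slamf1 and Slamf6 correlated at 0.90 in suffix 1 and 0.65 in suffix 2, Slamf6 and Ly9 at 0.84 and 0.79, and Cd84 and Cd244a at 0.07 and 0.19, although neutrophils carried both.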

How the data were processed

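CD45-positive, propidium iodide-negative cells of dissociated tumours were profiled on the 10x Genomics platform, per the labels. The submitters' processing notes name Cell Ranger, Seurat, GRCm38 and mm10 without roles. The authors deposited a table of raw UMI counts per gene and cell and a list of 45781 barcodes with cell type names. The table used here ends in an incomplete row, which was left out with what follows, and 16383 cells of barcode suffixes 1 and 2 had counts.

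Counts were summed per suffix and cell type name with Python 3.11.15, numpy 2.4.6, scipy 1.17.1 and pandas 2.3.3. Suffix 1 held 29567302 counted UMIs (median 1224.5 per cell) and suffix 2 held 8578852 (median 1712). Genes needed 50 UMIs in the cells compared. The planned fits across Mif-depleted and wild-type samples could not be made, because no source ties a suffix to a sample, so levels with exact intervals were given in their place. Up to 20 UMIs of a member came from 1 cell of the cells examined, so intervals that treat UMIs as independent are too narrow. No doublet caller was run. Results of 1 cell type name and of 1 pathway gene are not reported here; the cells stay in the pooled myeloid cells and the gene in the counts of its list.

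The members, gene lists, pairs of names and tests were chosen with earlier results of these data known. Every member was described, and genes outside the family were named from the pathway list, as neighbours on the chromosome, or as the 3 most like a member, except the B cell genes set against Slamf7, chosen after their values were seen. Poisson counts were simulated from the level of each gene over both pools together, at the depths of the lymphocyte and myeloid pools. They are independent draws, so the shares below do not cover UMIs that cluster in cells, and real calls can be less reliable. On these counts, the call recovered 100% of genes raised 6-fold, 82.7% of those raised 3-fold and 73.3% of those lowered to 0.333, and it took in 0 of 3096 unchanged genes. For NK_cell over all other cells it recovered 47.5% of genes raised 6-fold, 14% of those raised 3-fold and 11.1% of those lowered to 0.333, so a name of few cells with no call may still differ. Alternatives were another denominator, UMIs per cell, thinning each cell to 500 UMIs, cells of 1000 or more UMIs, leaving out cells of mixed lineage, CD8_Tex or neutrophils, and suffix 2.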

Additional observations from a re-analysis of the deposited data

How the results depend on the processing

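Slamf1, Slamf6, Slamf7 and Ly9 were called higher in lymphocytes in every setting run. The median over all genes of the log2 ratio of lymphocytes over myeloid cells, 0.74, was 0.23 with S100a8 and S100a9 left out of the totals, -0.16 in UMIs per cell, 0.16 without neutrophils, 0.87 without cells of mixed lineage and 0.43 in suffix 2. With those genes left out, Cd48 stood at 0.87 and Cd244a at -1.58. In UMIs per cell, Cd48 was at 0.48, Slamf8 at -1.24, Cd84 at -1.31 and Cd244a at -1.97. With each cell thinned to 500 UMIs Cd244a was at -1.71. In cells of 1000 or more UMIs Slamf8 and Slamf9 changed sign, to 0.025 and 0.20. That setting kept 941 of 3482 lymphocytes and 5970 of 8872 myeloid cells. Median depth in suffix 1 was 3292 UMIs in CD8_Tex and 648.5 over all pooled lymphocytes. Without cells of mixed lineage, Slamf8, Slamf9 and Cd244a were at -3.50, -2.47 and -1.38, and without CD8_Tex at -3.83, -2.70 and -2.05. Without neutrophils Slamf8 was at -1.27 and Cd48 at 0.50. In suffix 2 Slamf9 was at -1.88 and Cd244a changed sign, to 0.35. Chosen after seeing the data, leaving out neutrophils and cells of mixed lineage gave Slamf8 -4.63, Slamf9 -3.60 and Cd48 0.67, and leaving out neutrophils in suffix 2 gave Slamf8 -1.72, Slamf9 -2.36, Cd48 1.10 and Cd244a 0.59, the last with its sign changed. The cause was not tested. Of 34 calls of a member higher in a single name, 28 held with those genes left out, 22 in UMIs per cell and 24 in suffix 2, where the log2 ratio of Cd48 in cDC1_Ccl22 over other cells changed sign, to -0.0019. Of the 27 genes most like a member, 11 were shared when 0.1 in place of 1 was added to levels. No paired analysis was possible because no source ties a barcode suffix to a sample, and for the same reason the replicate block, leave-one-out, DESeq2 and low-count filter alternatives for Mif-depleted against wild-type tumours were not run. Depth limits names of few cells, such as NK_cell with 58 cells and Mono_Itgal with 41 in suffix 1.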
